A study of Mus musculus with 8 samples.

Results

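The genes described here are 4 cytokines of the interleukin-10 (IL-10) family, Il10, Il19, Il20 and Il24, and the 2 chains of the IL-10 receptor, Il10ra and Il10rb. These 6 genes, of 52636 in the count table, were chosen by name and with the knowledge that Il10 and Il19 stood far higher in LPS-treated than in vehicle-treated cells of this dataset. The difference between LPS and vehicle is therefore given for these 6 genes as a description, without a test. The cells were primary wild-type (WT) mouse microglia of strain C57BL/6 by the labels and from C57BL/6N pups by the methods, shaken off from mixed glial cultures of neonatal brain and kept in medium with 10% fetal bovine serum and 10 ng/ml CSF-1, the growth factor on which microglia depend. One group of 4 biological replicates received 5 µg/ml LPS, a bacterial cell wall component sensed by Toll-like receptor 4, for 24 h, and the other group of 4 received vehicle for the same time. Bulk RNA-seq gave 1 library per replicate. The cultures carry no reporter or deletion, and a cell population taken from neonatal brain into serum is a limited model of microglia in adult tissue.

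IL-10 is the founding member of a family of helical cytokines that signal through paired receptor chains and the JAK-STAT pathway. It binds IL-10RA, the ligand-binding chain, which pairs with IL-10RB. The kinases JAK1 and TYK2 then phosphorylate STAT3, and the target genes of STAT3 in myeloid cells restrain the output of inflammatory cytokines. IL-19, IL-20 and IL-24 bind other receptors, built on IL-20RB, and are best known for acting on epithelial cells. In macrophages and microglia, Il10 itself is transcribed after Toll-like receptor signalling, downstream of ERK and p38 MAP kinases, CREB, MAF and NF-κB.

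The cytokine genes form a cluster on mouse chromosome 1 (GRCm38). Il10 lies at chr1:131019845-131024974 on the plus strand with 5 merged exons, and Il19 lies at chr1:130932656-130940115 on the minus strand with 6. The Il20 gene is at chr1:130906985-130911451 with 5 merged exons and Il24 at chr1:130882074-130887454 with 6, both on the minus strand. The starts of Il19 and Il20 are 28.7 kb apart. The receptor genes are unlinked to the cluster and to each other. Il10ra is at chr9:45253837-45269149 on the minus strand, with 7 merged exons, and Il10rb at chr16:91406164-91425834 on the plus strand, with 8.

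Of the 6 genes, Il19 and Il20 had an entry in the RefSeq promoter table (GRCm38.p6). Their upstream sequences are shown because these close neighbours on one strand differed after LPS, with many reads for Il19 and almost none for Il20. The 250 bases before the RefSeq start were searched on both strands for the NF-κB consensus, the STAT site TTCNNNGAA (GAS), the interferon-stimulated response element (ISRE), TATAAA, the cyclic AMP response element TGACGTCA, the AP-1 site TGANTCA, the C/EBP site TTGCNNAA and the GC box GGGCGG. Capitals mark the matches, and both sequences run from 5′ to 3′ on the minus strand. The Il19 sequence is chr1:130940116-130940365. The Il20 sequence is chr1:130911452-130911546, the 95 bases of its window that lie outside the GENCODE gene.
Il19: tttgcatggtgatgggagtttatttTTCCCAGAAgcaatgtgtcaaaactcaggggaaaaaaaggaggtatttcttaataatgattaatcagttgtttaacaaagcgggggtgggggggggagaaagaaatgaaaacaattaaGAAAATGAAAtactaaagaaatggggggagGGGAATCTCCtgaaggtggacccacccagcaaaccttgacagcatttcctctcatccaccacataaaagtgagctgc
Il20: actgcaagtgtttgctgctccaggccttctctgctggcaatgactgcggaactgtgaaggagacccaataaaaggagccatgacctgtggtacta

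The Il19 window held 3 matches, none of which overlapped another. The match to the NF-κB consensus lay at positions -77 to -68, counted back from the base before the start, the match to ISRE at -107 to -98 and the match to GAS at -225 to -217. Of all 32851 promoter windows of the same length, 7.25% held the NF-κB consensus, 2.98% ISRE and 7.02% GAS. The Il20 window held none of the 8 motifs across its full 250 bases, of which 155 lie inside the GENCODE gene. Among genes with similar profiles, given below, the windows of Traf1, Acod1, Socs3, U90926, Upp1 and Ptgs2 held no NF-κB consensus. That of Il6 held it, and Slco3a1, Ccl5 and Nos2 had no RefSeq promoter window to search. A letter match describes these windows and is not a measured binding site.

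The libraries held between 20071921 and 30604447 counts, and levels are given as CPM, counts per 1000000 counts of a library, after TMM scaling unless another scale is named. TMM scaling, which fits a factor to each library so that most genes stay level, had factors of 1.21 to 1.32 for vehicle and 0.70 to 0.83 for LPS libraries, and scaling on library totals in its place shifted the median log2 fold change of all genes by -0.68. All 9 microglial markers were detected, and their summed level was 5880 to 7882 CPM in vehicle and 1306 to 1522 CPM in LPS libraries. Summed astrocyte markers went from 7.68 to 34.3 CPM in vehicle to 38.2 to 120 CPM in LPS libraries (6 of 6 detected), of which Gja1 alone was higher on average in LPS (0.87 ± 0.22 and 48.6 ± 33.2 CPM) and the other 5 were lower. Summed oligodendrocyte precursor markers went from 14.8 to 50.7 CPM to 0.47 to 7.24 CPM. Summed fibroblast markers went from 0.07 to 2.44 CPM to 4.71 to 19.5 CPM through Dcn (16 counts over vehicle, 706 over LPS), while Col1a1 (65 and 7 counts) and Col3a1 (35 and 2 counts) were lower in LPS. Of 4 neutrophil markers, Ly6g, Mpo and Elane never exceeded 3 counts, while S100a8 was at 0.37 ± 0.32 CPM (SD, n = 4) in vehicle and 777 ± 270 CPM in LPS libraries. T cell Cd3e and Cd3g had no count in any library, and the summed T cell markers were at 3.98 to 8.89 CPM in vehicle and 0.93 to 2.27 CPM in LPS libraries. That sum came from Cd4 (561 counts over vehicle, 44 over LPS) and Foxp3 (191 and 59 counts), apart from 1 vehicle count of Cd8a. Summed B cell markers stayed at or below 1.496 CPM and summed epithelial markers at or below 0.07 CPM in all 8 libraries. The part of these other cells in the levels below was not tested, and in bulk RNA a change in the number of cells of a type cannot be told apart from a change in RNA per cell.

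Il10 was low in vehicle-treated microglia, though above the floor of 3 counts in every library, and among the more abundant messages after LPS. Its counts were 48, 35, 56 and 19 in vehicle replicates 1 to 4, or 1.68, 1.21, 1.78 and 0.67 CPM. In LPS replicates 1 to 4 the counts were 4274, 6233, 5493 and 6145, or 256, 339, 256 and 332 CPM. Every LPS library stood far above every vehicle library, with vehicle replicate 4 the lowest and LPS replicates 2 and 4 the highest of their groups. The group means were 1.34 ± 0.51 CPM (SD, n = 4) and 296 ± 46.2 CPM, and the fitted difference was 7.78 on the log2 scale (SE 0.30), a 220-fold higher level. Relative to the median of all tested genes, this difference was 7.89 with TMM scaling and 7.91 with library totals. Spread was wide in vehicle, where the highest library had 2.63 times the CPM of the lowest, and narrow in LPS, at 1.33 times.

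Il19 went from almost no reads to the most abundant message of the 6. Vehicle replicates 1 to 4 had 5, 1, 0 and 0 counts, or 0.18, 0.03, 0 and 0 CPM. LPS replicates 1 to 4 had 23573, 14732, 17811 and 14701 counts, or 1411, 802, 831 and 795 CPM. LPS replicate 1 stood apart from the other LPS libraries, and vehicle replicate 1 alone passed the floor of 3 counts. Il19 took 0.058 to 0.117% of all counts in the LPS libraries. The 6 counts summed over vehicle against 70817 over LPS gave a ratio of scaled totals of 18439, with an exact 95% Poisson interval of 8471 to 50245 that covers the counting error of the vehicle reads only. Without vehicle replicate 1, the ratio rested on 1 vehicle count and was 83657, with an interval of 15015 to 3304284. The fitted log2 difference was 14.05 (SE 0.57). It depends on the small prior count added to genes near 0, being 12.80 with a larger prior count of 2, and it was 15.85 without vehicle replicate 1. Its size is thus poorly fixed, although the groups were separated by more than 3 orders of magnitude in every library.

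Il20 and Il24 were not detectable at this depth in either group. Il20 had 2 counts in LPS replicate 2 and none in the other 7 libraries, and Il24 had 1 count in LPS replicate 3 and none elsewhere. A floor of 3 counts corresponds to 0.10 to 0.11 CPM in the vehicle and 0.14 to 0.18 CPM in the LPS libraries, so that both genes were under the floor in all 8. No fold is given for them, and they did not pass the filter on low counts that the other 4 genes passed. Intervals and floors here cover counting error only.

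**Figure D1:**
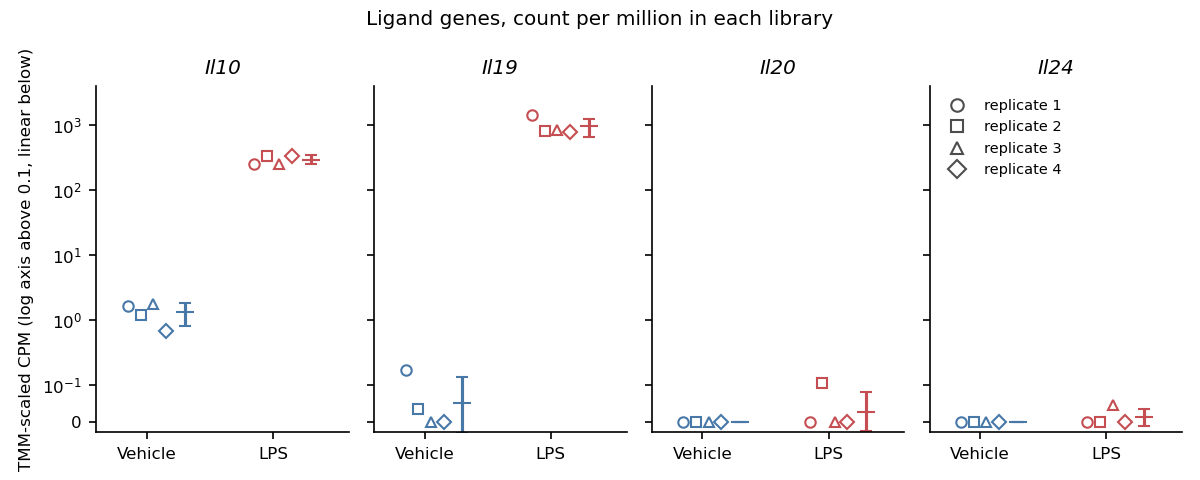
TMM-scaled CPM (log axis above 0.1, linear below) of the 4 cytokine genes in each of the 8 libraries, with a symbol per replicate number and a bar for the mean ± SD of 4 libraries, cut at the lower axis limit where it passes below 0. Il10 and Il19 are separated between vehicle and LPS, Il19 is highest in LPS replicate 1 at 1411 CPM, and Il20 and Il24 stay at or near 0.

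Both receptor genes were well expressed in both groups, and the direction of their difference depended on the scaling. Il10ra, the ligand-binding chain, had 5182, 5236, 7179 and 4361 counts in vehicle and 4172, 4201, 6548 and 4214 in LPS replicates 1 to 4. After TMM scaling these were 181, 181, 228 and 155 CPM in vehicle and 250, 229, 305 and 228 CPM in LPS, and the groups just failed to overlap. On library totals they were 227, 232, 275 and 204 CPM in vehicle and 208, 186, 214 and 187 CPM in LPS, with overlap. Replicate 3 was the highest of its group on either scale. The log2 difference was 0.44 (SE 0.15) with TMM scaling, and -0.24 (SE 0.11) with library totals. Relative to the median of all tested genes, it was 0.55 under both scalings.

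Il10rb, which is also a chain of the receptors for IL-22 and the lambda interferons, also turned its direction with the scaling. Its counts were 5103, 5732, 6412 and 5360 in vehicle and 2964, 4073, 6309 and 3787 in LPS replicates 1 to 4. With TMM scaling, vehicle libraries had 179, 198, 203 and 190 CPM and LPS libraries 177, 222, 294 and 205 CPM. The groups overlapped on this scale, since LPS replicate 1 was below every vehicle library and LPS replicate 3 above all others. On library totals the 4 LPS libraries, at 148 to 206 CPM, were all below the vehicle libraries, at 224 to 254 CPM. The log2 difference was 0.22 (SE 0.15) with TMM scaling and -0.47 (SE 0.12) with library totals, or 0.33 and 0.32 above the median of all tested genes. The share of a library's reads that fell on its top 100 genes was 27.1 to 29.3% in vehicle and 34.97 to 37.0% in LPS, and the part of this gap in the dependence on scaling was not tested. Of the exon bases of Il10rb, 14.9% overlap the gene Gm21970 on the same strand, so that reads there could be assigned to neither or to either gene.

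**Figure D2:**
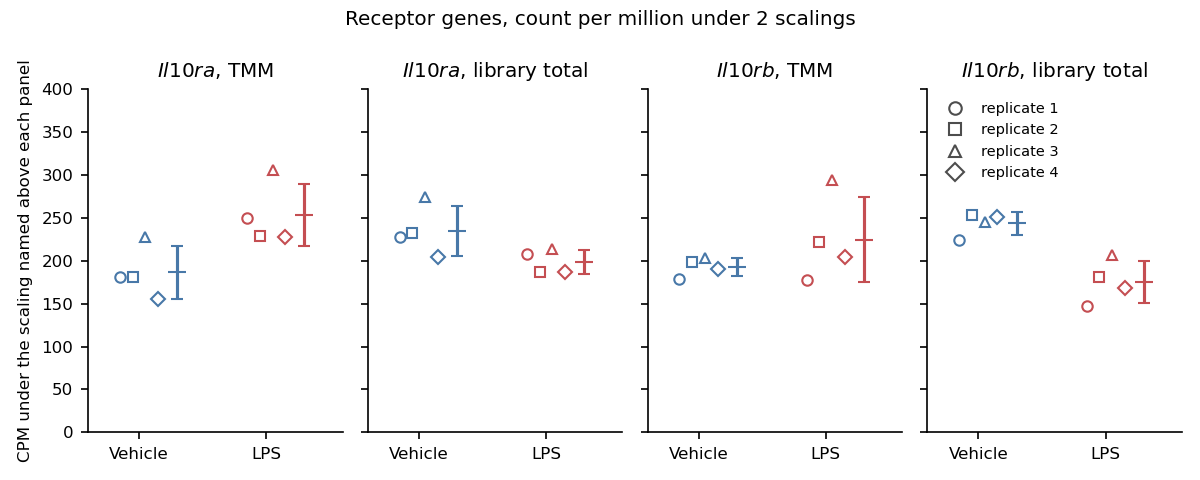
CPM of Il10ra and Il10rb in each of the 8 libraries on a linear axis that starts at 0, with TMM scaling and with scaling on library totals alone; symbols mark replicate numbers and bars the mean ± SD of 4 libraries. Both genes lie higher in LPS than in vehicle on average with TMM scaling (log2 differences of 0.44 and 0.22) and lower with library totals (-0.24 and -0.47).

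Across all 13847 genes that passed the filter, edgeR called 64.1% changed at an adjusted p under 0.05, 30.3% higher and 33.8% lower in LPS, and the CPM of the groups did not overlap for 28.7% in the higher and 31.5% in the lower direction. Il10, Il19 and Il10ra were higher without overlap with TMM scaling, of the 4 members that passed the filter. Because the members were chosen on this contrast, no reading is taken from that count.

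Levels can be ordered between genes only per length of transcript, as TMM-scaled CPM per kilobase of merged exon (RPKM). In vehicle, Il10ra was at 53.2 ± 8.66 RPKM (SD, n = 4) and Il10rb at 50.6 ± 2.83 RPKM, 2 levels that did not differ beyond their spread. Il10 followed at 1.02 ± 0.39 RPKM and Il19 at 0.05 ± 0.07 RPKM. In LPS, the order turned to Il19 at 835 ± 262 RPKM, Il10 at 226 ± 35.3 RPKM, Il10ra at 72.3 ± 10.4 RPKM and Il10rb at 59.0 ± 13.1 RPKM. The ranges of Il19, Il10 and Il10ra did not touch, while those of the receptor chains overlapped. Ranked by RPKM among 13828 genes in each LPS library, Il19 held places 42 to 78 and Il10 places 185 to 289, against places 9566 to 11544 for Il10 in vehicle.

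Ratios between genes within a library do not depend on the scaling. The RPKM of Il19 was 6.29 times that of Il10 in LPS replicate 1, and 2.69, 3.70 and 2.73 times in LPS replicates 2, 3 and 4. LPS replicate 1, which had the most Il19 reads, had the fewest Il10 reads, although by CPM it was level with LPS replicate 3 for Il10. The Il10 message was at 2.24 to 3.96 times the RPKM of Il10ra in LPS and at 0.012 to 0.025 times in vehicle libraries. The ratio of Il10ra to Il10rb was 0.89 to 1.22 in vehicle and 1.12 to 1.53 in LPS libraries, so that the chains kept similar levels and the ranges of their ratio overlapped.

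Il19 and Il10, whose starts are 79.7 kb apart, were the only ones of the 4 cluster genes and 10 neighbours to reach RPKM values above 100 after LPS from values near or below 1. Of the 5 nearest protein-coding genes on either side, 7 passed the filter, and of these 2 rose, 3 fell and 2 were not called, a share of called genes near the 64.1% of all tested genes. The 2 that rose lie on the side of Il10. Mapkapk2, a kinase activated by p38 that stabilises cytokine messages, went from 326 ± 47.5 to 963 ± 21.8 CPM (log2 fold change 1.56, SE 0.13, edgeR adjusted p = 7.62e-06). Ikbke, a kinase of the interferon response, went from 101 ± 39.6 to 538 ± 46.8 CPM (2.41 on the log2 scale, SE 0.27, edgeR adjusted p = 4.12e-05).

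The neighbours that fell lie on both sides of the cluster. Rassf5, a Ras effector in leukocyte adhesion, fell by 2.05 on the log2 scale (SE 0.26, edgeR adjusted p = 0.000102), and Pfkfb2, a regulator of glycolysis, by 1.43 (SE 0.24, edgeR adjusted p = 0.000503). Dyrk3, a protein kinase, fell by 1.22 (SE 0.30, edgeR adjusted p = 0.00526). Eif2d, a translation factor, was at 22.1 ± 0.71 and 19.0 ± 0.75 CPM (edgeR adjusted p = 0.0659, and 0.0278 without LPS replicate 3), without overlap of the groups, and AA986860 at 0.66 ± 0.34 and 0.50 ± 0.15 CPM (edgeR adjusted p = 0.461). With library totals, these 2 were also called lower, which made 2 higher and 5 lower. Next to Il24, the IgM receptor gene Fcmr had 0 counts in vehicle and 20 in all over the LPS libraries, and the immunoglobulin transport genes Pigr and Fcamr had none in any library.

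**Figure D3:**
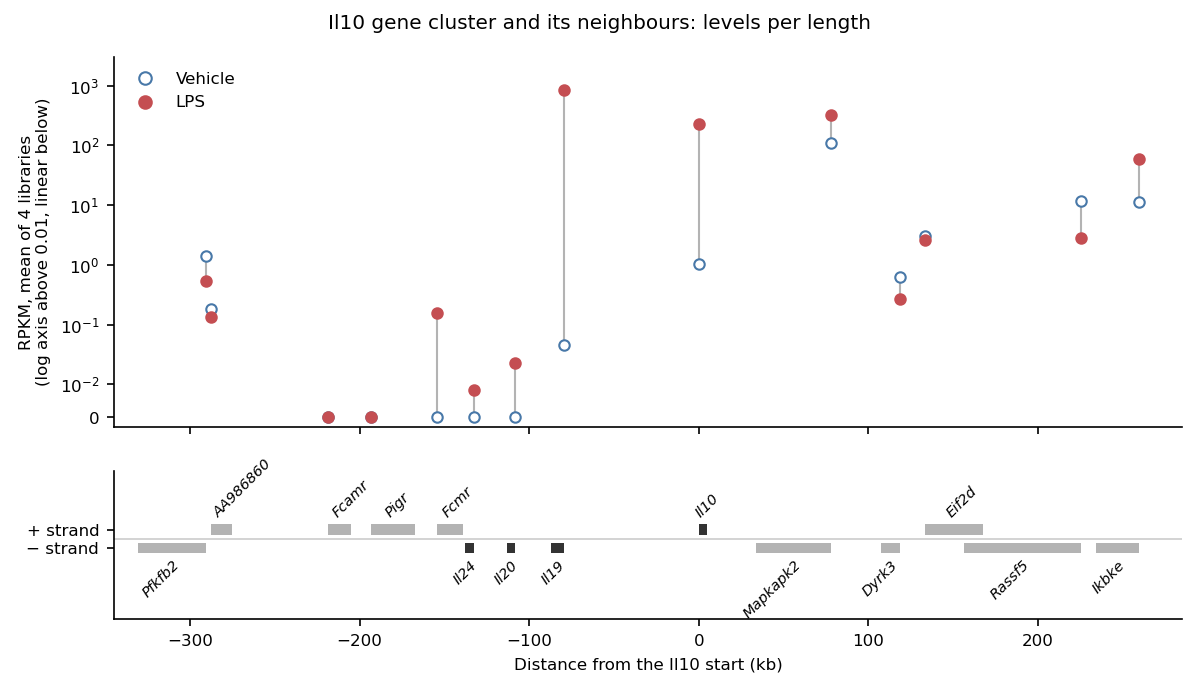
Mean RPKM of 4 vehicle and 4 LPS libraries for the Il10 cluster and its 10 nearest protein-coding neighbours, placed at the start of each gene by its distance from the Il10 start in kb (upper panel, log axis above 0.01 and linear below), over the extent and strand of each gene (lower panel). Il19 and Il10 show the widest gaps between vehicle and LPS, from 0.05 to 835 and from 1.02 to 226 RPKM.

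Few other members of the family were seen. Of 9 further IL-10 family ligands and receptor chains, 8 had no count in any library, namely the ligands Il22, Iltifb, Ifnl2 and Ifnl3 and the chains Il20ra, Il22ra1, Il22ra2 and Ifnlr1. Il20rb, the shared chain of the receptors for IL-19, IL-20 and IL-24, was the exception, at 0.78 ± 0.25 CPM in vehicle and 2.53 ± 0.44 CPM in LPS. Its 4 LPS libraries, at 2.18 to 3.17 CPM, were above the 4 vehicle libraries, at 0.52 to 1.08 CPM, and it rose by edgeR (log2 fold change 1.69, SE 0.30, adjusted p = 0.000732). Il20ra, the chain with which it forms the receptor for IL-19, was at 0, and Il20rb stayed a message of 68 counts at most in a library.

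The signalling chain below the IL-10 receptor was detected in full, and most of its genes were called higher with TMM scaling. All 9 of its genes passed the filter, 7 rose, none fell and 2 were not called, where 30.3% of all tested genes rose and 33.8% fell, and their median log2 fold change was 0.87 beside -0.11 for all tested genes. With library totals 3 were called higher and 4 lower, so that a direction for the chain as a whole rests on the scaling. Stat3 went from 184 ± 19.1 to 852 ± 53.5 CPM (log2 fold change 2.21, SE 0.12, edgeR adjusted p = 6.61e-07). Its LPS libraries, at 810 to 929 CPM, were all far above the vehicle libraries, at 161 to 203 CPM, and it was called higher under both scalings. Socs1, a feedback inhibitor of JAK kinases, had the largest log2 fold change of the list, 3.79 (SE 0.38, edgeR adjusted p = 2.3e-05), from 1.77 ± 0.94 to 24.6 ± 9.71 CPM, also under both scalings.

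The receptor-bound kinases moved less. Jak1, which associates with IL-10RA, went from 291 ± 21.2 to 539 ± 78.9 CPM (log2 fold change 0.89, SE 0.13, edgeR adjusted p = 0.00025), and with library totals its log2 difference was 0.20 and was not called. Tyk2, which associates with IL-10RB, rose by 0.36 (SE 0.11, edgeR adjusted p = 0.0155) with TMM scaling but was called lower, at -0.31, with library totals. Inpp5d, the lipid phosphatase SHIP1, was higher with TMM scaling (0.27, SE 0.10, edgeR adjusted p = 0.0413) and lower with library totals (-0.41), and its call was lost with the replicate number as a block (adjusted p = 0.0654). It was also lost without vehicle replicate 2 or 4 or LPS replicate 2 or 4, with adjusted p-values of 0.0677 to 0.0821. Stat5b and Pias3, an inhibitor of STAT3, were the pair not called with TMM scaling (edgeR adjusted p = 0.721 and 0.49). Both were called lower with library totals, at -0.73 and -0.78.

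Genes known as targets of IL-10 and STAT3 were mostly higher after LPS. Of 14, 13 passed the filter, 11 rose, 1 fell and 1 was not called, where 30.3% of all tested genes rose and 33.8% fell, with a median log2 fold change of 2.65 beside -0.11 for all tested genes and the same counts with library totals. Many of them also respond to LPS by other routes, so that their change is not a measure of IL-10 signalling. Socs3, the STAT3-induced feedback inhibitor of cytokine receptors, was at 12.5 ± 5.44 CPM in vehicle and 1748 ± 175 CPM in LPS (log2 fold change 7.13, SE 0.36, edgeR adjusted p = 4.01e-07). Its lowest LPS library, at 1501 CPM, was far above its highest vehicle library, at 17.5 CPM.

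Il1rn, the secreted antagonist of the IL-1 receptor, rose from 15.5 ± 12.9 to 11677 ± 2321 CPM (log2 fold change 9.55, SE 0.74, edgeR adjusted p = 4.44e-06). Il4ra, the IL-4 receptor chain that IL-10 raises in macrophages, rose 12.1-fold (SE 0.31 on the log2 scale, edgeR adjusted p = 8.35e-06). Zfp36, which codes for the mRNA-destabilising protein TTP, rose 6.47-fold (SE 0.15, edgeR adjusted p = 7.38e-07). Hmox1, haem oxygenase 1, and Bcl3, a nuclear IκB protein that limits NF-κB target genes, rose 6.26-fold (SE 0.26, edgeR adjusted p = 1.81e-05) and 5.04-fold (SE 0.24, edgeR adjusted p = 2.54e-05). Etv3, a transcriptional repressor, was the exception and fell by 0.69 on the log2 scale (SE 0.18, edgeR adjusted p = 0.00772), being at 145 ± 14.6 CPM in vehicle and 89.6 ± 23.3 CPM in LPS. Il21r was not called (log2 fold change 0.60, SE 0.34, adjusted p = 0.146), although it was called higher with the replicate block (adjusted p = 0.00717) and without vehicle replicate 3 (adjusted p = 0.00619). Cd163, a scavenger receptor raised by IL-10, did not pass the filter, with 58 counts over the vehicle and 7 over the LPS libraries.

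Genes whose output IL-10 is known to limit were high in the same LPS libraries that held the Il10 message. Of 11, 8 passed the filter and those 8 rose, where 30.3% of all tested genes rose. Their median log2 fold change was 8.11 beside -0.11 for all tested genes, and all 8 were called higher with library totals too. Il6 and Il12b, with 14 and 2 counts over the vehicle libraries, passed the filter through their LPS libraries and could be called higher but not lower. As for the target genes, these counts are not a measure of IL-10 signalling. Ptgs2, cyclooxygenase 2, went from 6.43 ± 4.10 to 10944 ± 1419 CPM (log2 fold change 10.73, SE 0.53, edgeR adjusted p = 3.61e-07). Tnf went from 32.1 ± 3.17 to 645 ± 180 CPM (4.33, SE 0.23, edgeR adjusted p = 5.06e-07), and Il1b from 41.3 ± 27.6 to 3426 ± 1637 CPM (6.38, SE 0.58, edgeR adjusted p = 1.19e-05). Il1a reached 1861 ± 1518 CPM (9.85, SE 0.91, edgeR adjusted p = 1.26e-05) and Il6 reached 500.5 ± 242 CPM (11.97, SE 0.77, edgeR adjusted p = 1.5e-06).

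The spread of Il1b and Il6 within the LPS group was of another kind than that of Il10. Il1b was at 4671 and 5003 CPM in LPS replicates 1 and 3 and at 2103 and 1926 CPM in replicates 2 and 4. Il6 was at 632 and 776 CPM in LPS replicates 1 and 3 and at 300 and 294 CPM in replicates 2 and 4. Replicates 2 and 4, the lower ones for both cytokines, were the higher ones for Il10, at 339 and 332 CPM against 256 and 256 CPM. Tnf, of the same list, did not share this order. It was at 829, 607, 412 and 731 CPM in LPS replicates 1 to 4, lowest in replicate 3. With 4 libraries this is a description of single libraries and was not tested. The IL-12 and IL-23 subunits Il12a and Il23a did not pass the filter, with 14 and 4 counts over the LPS libraries. Il12b, the other subunit gene of IL-12 and IL-23, passed it and was called higher (log2 fold change 11.47, SE 1.51). Its LPS libraries were at 10.7 to 180 CPM and its vehicle libraries at 0 to 0.04 CPM. Ciita, the activator of MHC class II genes, did not pass, with 88 counts over the vehicle and 0 over the LPS libraries. With no filter on low counts, 9 genes of the list were called higher and 1 lower, and leaving out vehicle replicate 4 or any 1 LPS library gave 8 higher and 1 lower.

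Regulators of Il10 transcription moved in both directions. All 27 passed the filter, 15 rose, 7 fell and 5 were not called, where 30.3% of all tested genes rose and 33.8% fell, with a median log2 fold change of 0.50 beside -0.11 for all tested genes. With library totals 8 were called higher and 12 lower, so that the balance turned with the scaling. Those that rose under both scalings included Mapkapk2, given above, and Map3k8, the kinase that links Toll-like receptors to ERK, which went from 29.1 ± 3.12 to 154 ± 15.8 CPM (log2 fold change 2.40, SE 0.12, edgeR adjusted p = 3.95e-07). The NF-κB subunit gene Rel rose by 1.32 (SE 0.12, edgeR adjusted p = 1.32e-05), also under both scalings.

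Several abundant regulators were called differently under the 2 scalings or were not called. Maf, a transcription factor needed for full Il10 expression in macrophages, was at 516 ± 86.6 CPM in vehicle and 677 ± 31.8 CPM in LPS and was called higher with TMM scaling (0.39, SE 0.14, edgeR adjusted p = 0.0326) but was at -0.28, not called, with library totals. The call for Maf was also lost without vehicle replicate 1, 2 or 4 or LPS replicate 2 or 4, with adjusted p-values of 0.0576 to 0.0782. Nfkb1, the gene of the NF-κB p50 precursor, rose by 0.82 (SE 0.10, edgeR adjusted p = 5.47e-05) with TMM scaling and was at 0.14, not called, with library totals. Mapk3, an ERK kinase, was not called with TMM scaling (0.04, SE 0.10, edgeR adjusted p = 0.763) but was called lower, at -0.64, with library totals.

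The 7 regulators that fell did so under both scalings. Hdac11, a histone deacetylase described as a repressor of Il10, fell by 4.41 on the log2 scale (SE 0.74, edgeR adjusted p = 0.000576), from 2.10 ± 0.56 to 0.09 ± 0.16 CPM, the 4 LPS libraries holding 7 counts in all. Hdac11 passed the filter through its vehicle libraries and could be called lower but not higher. Sik1, a salt-inducible kinase that keeps CRTC coactivators out of the nucleus, fell by 2.05 (SE 0.23, edgeR adjusted p = 3.9e-05), and Sik2 by 0.41 (SE 0.12, edgeR adjusted p = 0.0161). Sik3, of the same kinase family, went the other way, from 52.0 ± 5.10 to 253 ± 11.8 CPM (log2 fold change 2.28, SE 0.11, edgeR adjusted p = 2.95e-07), under both scalings. The call for Sik2 was lost without vehicle replicate 1 or 3 (adjusted p = 0.0688 and 0.0502). Rps6ka5, the nuclear kinase MSK1 that phosphorylates CREB, fell by 1.97 (SE 0.12, edgeR adjusted p = 8.9e-07), and Creb1 itself by 0.56 (SE 0.15, edgeR adjusted p = 0.00975). Mapk14, p38α, fell by 0.72 (SE 0.13, edgeR adjusted p = 0.000787).

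**Figure D4:**
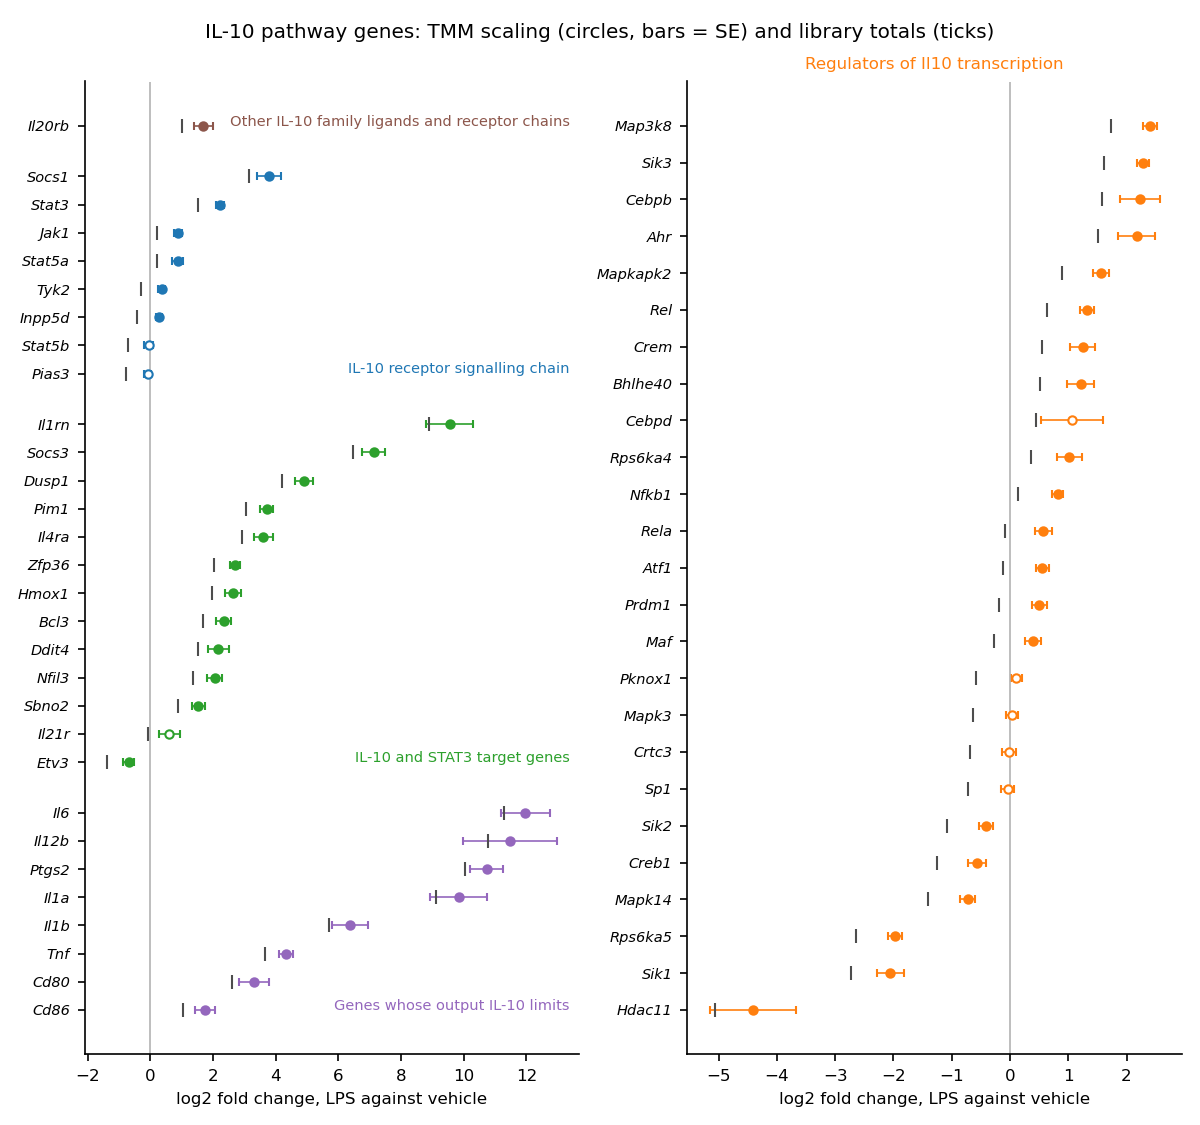
Log2 fold changes, LPS against vehicle, of the IL-10 pathway genes shown here, all of which passed the filter, with TMM scaling (circles with SE bars, filled at an edgeR adjusted p under 0.05) and with library totals alone (grey ticks), grouped by list. All 8 genes whose output IL-10 limits lie to the right of 0 under both scalings, while ticks of the signalling genes and regulators fall on either side of 0; ticks lie left of circles throughout, since library totals shift the median log2 fold change by -0.68.

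Among all genes that passed the filter, those most like Il10 and Il19 were found by the root mean square (RMS) difference of log2 CPM profiles over the 8 libraries, each profile taken relative to its own mean. Nearest to Il10 was Traf1, a signalling adaptor of the TNF receptor family, at an RMS difference of 0.30, followed by the transporter gene Slco3a1 (0.37), the itaconate synthase gene Acod1 (0.38), Socs3 (0.39) and the chemokine gene Ccl5 (0.41). Traf1 was at 1.14 to 3.08 CPM in vehicle and 246 to 391 CPM in LPS libraries, close to the levels of Il10. Ccl5 had a log2 fold change of 8.30 (SE 0.49), Slco3a1 of 7.52 (SE 0.47) and Acod1 of 7.38 (SE 0.54), beside 7.78 for Il10.

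No gene lay as close to Il19, whose vehicle values rest on 5, 1, 0 and 0 counts. At so few counts single reads shift the log2 profile, and their part in the larger distances was not tested. The gene nearest to Il19, U90926, was at an RMS difference of 0.88. Nos2, inducible nitric oxide synthase, Il6, the uridine phosphorylase gene Upp1 and Ptgs2 followed at 1.07, 1.23, 1.41 and 1.82. U90926 was also highest in LPS replicate 1, at 1091 CPM against 413 to 550 CPM in the other LPS libraries, and had 10 counts over the vehicle libraries. Nos2 reached 11584 ± 452 CPM, with LPS libraries within 11219 to 12178 CPM, and so did not share the high value of Il19 in LPS replicate 1. All of these distances are dominated by the gap between the groups that the libraries have in common, and describe levels only.

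**Figure D5:**
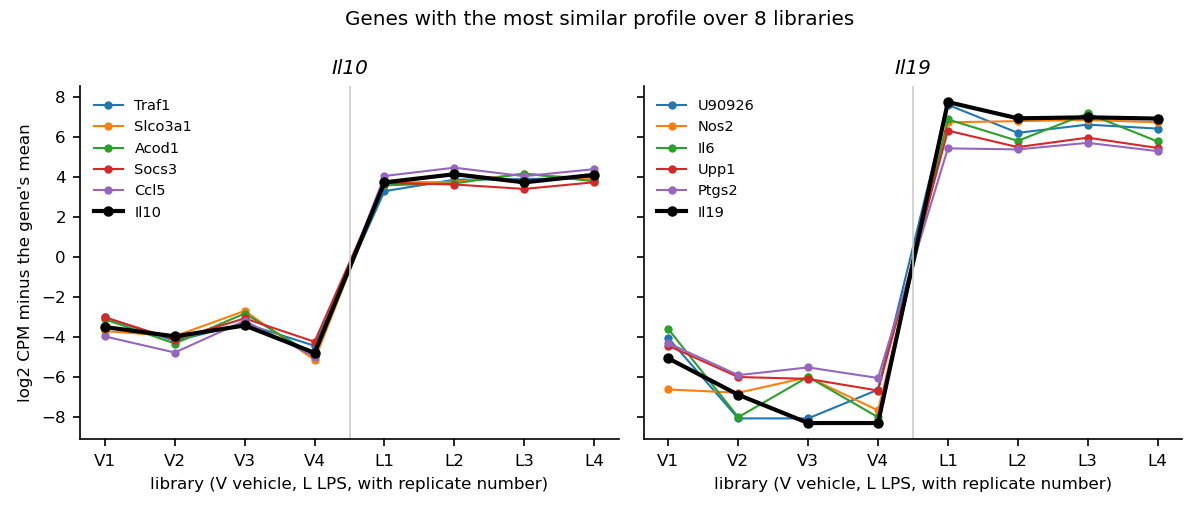
Log2 CPM minus each gene's own mean in the 8 libraries (V1 to V4 vehicle, L1 to L4 LPS) for Il10 and Il19 in black and the 5 genes with the most similar profile in colour. The profiles near Il10 run within an RMS difference of 0.41 of it, and those near Il19 spread further, from 0.88 to 1.82.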

How the data were processed

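RNA-seq was made from 8 libraries, 4 per group. The authors filtered and aligned single-end reads to GRCm38 with GSNAP within HTSeqGenie, kept uniquely aligned reads and deposited raw counts per Ensembl gene. The methods and the labels name different library kits and sequencers, the labels a stranded kit; whether strand was used in counting, and the annotation release, are not given in the sources used here. Unique alignment can lower counts of genes that share sequence.

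Here, gene symbols and exon lengths came from GENCODE vM21 (52403 of 52636 genes had a symbol), and all 126 entries of the lists and markers matched. edgeR 4.0.16 (R 4.3.3) was run on the counts: its filterByExpr function kept 13847 genes (minimum count 10, minimum total count 15), TMM scaling was applied, and the quasi-likelihood test compared LPS with vehicle, with Benjamini-Hochberg adjustment over all genes kept. The SE is the log2 fold change divided by the root of F. The pipeline was tested on simulated data in which few genes changed, equally up and down, so that the choice of scaling was not tested there. Ratios with few reads carry exact 95% Poisson intervals. Members, gene lists and tests were chosen with earlier results of these data known. Genes were named by a fixed rule, which took all members and neighbours and the 5 of highest mean CPM in each list. The rule also took Jak1, Tyk2, Stat3, Socs3, Bcl3, Maf and Map3k8, genes called against most of their list, and the 5 most similar profiles. Il12b, Il21r, Stat5b, Pias3, Socs1, Sik3 and Rel were named after their values were seen. So were the list genes that did not pass the filter and the cell type markers.

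Same-numbered vehicle and LPS libraries deviated together over 8382 genes (r = 0.36, 0.18, 0.18 and 0.13 for numbers 1 to 4), although vehicle 2 with LPS 4 (0.15) and vehicle 4 with LPS 2 (0.14) correlated no less than pair 4; no label gives a shared culture; the fit has no block, and a blocked fit is an alternative. Other alternatives were DESeq2 1.42.0, its size factors, no filter on low counts, a prior count of 2, each library left out and, chosen after seeing the data, library totals with no TMM factor. The single-gene results of 3 list genes are not reported here, although list counts and medians include them.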

Additional observations from a re-analysis of the deposited data

Results flagged for a closer look

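Of 91 groups of 4 libraries checked over the named genes, 7 had 1 library far from the other 3 by Dixon's criterion at 95%, a rate at which chance alone marks about 1 in 20 groups. Il19 was at 1411 CPM in LPS replicate 1, against 795 to 831 CPM in the other LPS libraries, and without that library its log2 fold change was 13.82.

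In vehicle replicate 1, 4 genes stood above the other vehicle libraries: Il1b at 82.3 CPM against 23.0 to 32.3, Il6 at 0.42 CPM against 0 to 0.06, U90926 at 0.32 CPM against 0 to 0.04 and Upp1 at 0.25 CPM against 0.04 to 0.07. This is the library that held 5 of the 6 vehicle reads of Il19. Il10, at 1.68 CPM there, was within the range of the other vehicle libraries.

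The other 2 were regulators of Il10 transcription. Mapk14 was at 123 CPM in LPS replicate 3 against 90.0 to 92.6 CPM, and Hdac11 at 0.32 CPM in LPS replicate 4 against 0 to 0.05 CPM.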

How the results depend on the processing

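Over all alternatives, 142 of 147 values stayed within 1.5 times the count of calls, or within 1 SD of replicates for the fold changes of members, although the split of calls turned with library totals for the signalling genes (3 higher, 4 lower) and the regulators (8 higher, 12 lower). With library totals only, the log2 fold changes of Il10ra and Il10rb turned to -0.24 and -0.47, and that of Il10 moved to 7.12. That of Il19 moved to 12.80 with a prior count of 2 and to 15.85 without vehicle replicate 1. Relative to the median of all tested genes, Il10ra, Il10rb and Il10 were at 0.55, 0.33 and 7.89 with TMM scaling. With library totals these 3 were at 0.55, 0.32 and 7.91. The cause was not tested for these 3, and the values of Il19 rest on the near absence of vehicle reads. Leaving out 1 library gave log2 fold changes of 7.59 to 8.01 for Il10, 13.70 to 15.85 for Il19, 0.34 to 0.61 for Il10ra and 0.07 to 0.33 for Il10rb, and 8031 to 9314 genes called in all, against 8877. Among all genes, library totals called 1988 higher and 8457 lower, against 4191 and 4686.

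Of 54 list and neighbour genes called, 49 kept their call under each alternative other than library totals, with which 3 called higher were called lower and 8 were not called. The replicate block called 6 of the 9 signalling genes, against 7, losing Inpp5d, and 13 target genes, against 12, gaining Il21r; it changed no other call on a list or neighbour gene. No fold is given for Il20 or Il24 under any alternative, including the fit with no filter on low counts, which took them in. Depth limits what can be said of Il20, Il24 and Il19 in vehicle, where 1 read is worth 0.03 to 0.04 CPM.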
